A study of Mus musculus with 24 samples.

Results

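The 8 genes described here are neighbours on mouse chromosome 11 of the GRCm38 build: the interleukin-9 receptor gene Il9r, Snrnp25, Rhbdf1, Mpg, Nprl3 and the alpha-globin genes Hba-x, Hba-a1 and Hba-a2. They were taken by gene symbol from the 55487 distinct genes of the deposited count table, and 8 of the 8 passed the filter on low counts that left 23059 genes. Il9r was chosen for its level at P28 and Rhbdf1 for its level at P0, so those values are given as descriptions without a test, while the other 6 genes were chosen by position alone and are called the neighbours below. The question was whether the higher Il9r and Rhbdf1 levels with MLL::ENL were shared by the genes around them.

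Expression was measured by RNA-seq in 24 libraries of mouse LSK cells, a sorted population rich in blood stem and progenitor cells, in 6 groups of 4. The study's design text calls the sorted cells Lineage-KIT+ progenitors, whereas the sample labels call them LSK, and it describes the replicates as biological. Liver was the source at postnatal day 0 (P0), with a wild-type group (P0 WT) and a group expressing human MLL::ENL (ME) from a Tet-off system, in which a tetracycline-type drug holds the transgene silent, induced at E10.5 (P0 ME). Bone marrow was the source at postnatal day 28 (P28), again with a wild-type group (P28 WT). The ME groups at P28 were induced at E10.5, induced at P0, or induced at E10.5 and also marked RLT Vav Txp, a term the labels do not expand. The labels name no promoter that drives the transgene or its regulator. Because liver was sampled only at P0 and marrow only at P28, age and tissue cannot be told apart.

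MLL::ENL is a leukaemic fusion of a chromatin regulator with a component of a transcription elongation complex. Il9r codes for the chain that binds interleukin-9 and signals with the common gamma chain through JAK1 and JAK3 to STAT proteins. It is best known from mast cells and T cells. Rhbdf1 codes for iRhom1, an inactive rhomboid protein that helps the protease ADAM17 to mature and reach the cell surface. Snrnp25 codes for a protein of the minor spliceosome, Mpg for a DNA glycosylase that starts base excision repair of alkylated bases, and Nprl3 for a subunit of the GATOR1 complex that restrains mTORC1. The distal enhancers of the alpha-globin genes lie within introns of Nprl3. Hba-x is the embryonic zeta-globin gene, and Hba-a1 and Hba-a2 are the adult pair.

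In the GENCODE M21 annotation Il9r (ENSMUSG00000020279, minus strand) spans chr11:32187541-32200279, Snrnp25 (plus strand) chr11:32205415-32208984 and Rhbdf1 (ENSMUSG00000020282, minus strand) chr11:32209585-32222300. Snrnp25 therefore lies wholly between Il9r and Rhbdf1. Nprl3 (minus strand) spans chr11:32225628-32267707 and encloses Mpg (plus strand), at chr11:32226505-32232700. Mpg and Nprl3 share 1340 exonic bases, 35.7% of those of Mpg and 17.7% of those of Nprl3, and the strand setting of the counting is not given in the sources used here, so reads in that stretch could not be assigned with certainty. Hba-x (chr11:32276400-32278116), Hba-a1 (chr11:32283511-32284465) and Hba-a2 (chr11:32296489-32297298) follow on the plus strand, and the whole interval is 109.8 kb long. Of the stretches of 50 bases in their transcripts, 72.3% of Hba-a1 and 89.3% of Hba-a2 occur in the other gene, so the split between these genes is uncertain.

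The promoters of Il9r and Snrnp25 are printed because these genes lie side by side and differed in pattern across the groups. Each runs from 250 bases before to 50 bases after the RefSeq start (GRCm38.p6), 5′ to 3′ on the gene's own strand, with every CG in capitals. The Il9r promoter is chr11:32200230-32200529 (minus strand) and the Snrnp25 promoter is chr11:32205165-32205464 (plus strand).
Il9r: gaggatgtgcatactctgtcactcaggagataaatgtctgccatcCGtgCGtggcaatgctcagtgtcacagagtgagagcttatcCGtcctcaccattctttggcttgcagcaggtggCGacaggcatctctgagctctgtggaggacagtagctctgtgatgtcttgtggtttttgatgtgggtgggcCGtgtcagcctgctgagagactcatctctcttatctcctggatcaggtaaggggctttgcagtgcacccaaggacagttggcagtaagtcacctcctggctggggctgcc
Snrnp25: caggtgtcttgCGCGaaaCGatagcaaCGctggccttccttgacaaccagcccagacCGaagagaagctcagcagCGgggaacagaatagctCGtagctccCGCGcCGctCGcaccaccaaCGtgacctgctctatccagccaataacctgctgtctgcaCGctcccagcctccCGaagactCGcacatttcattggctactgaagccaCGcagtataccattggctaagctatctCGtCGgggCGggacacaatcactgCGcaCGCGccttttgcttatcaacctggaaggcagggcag
The Il9r window holds 5 CG and the Snrnp25 window 22. Among 32851 RefSeq promoters of the same length the median was 7, and 62.0% held at least 5 and 23.1% at least 22. The windows of Mpg and Nprl3 hold 22 and 20, and those of Hba-x and Hba-a1 hold 2 and 4. CG reads the same on both strands, and these counts are a description of the sequence only.

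The Hba-a1 promoter, chr11:32283422-32283721 (plus strand), is printed to show how alike the adult pair is around its RefSeq starts, with CCAAT and TATAA in capitals. The GENCODE M21 start of Hba-a1 is 32283511, so most of this window lies inside the annotated gene. Its likeness to Hba-a2 is thus not separate from that of the transcripts above.
Hba-a1: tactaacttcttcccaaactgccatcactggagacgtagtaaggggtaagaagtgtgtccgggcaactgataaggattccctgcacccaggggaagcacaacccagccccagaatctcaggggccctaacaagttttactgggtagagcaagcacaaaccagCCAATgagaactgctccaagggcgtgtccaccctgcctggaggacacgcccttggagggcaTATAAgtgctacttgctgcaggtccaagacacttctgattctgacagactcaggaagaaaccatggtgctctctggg
Aligned with the Hba-a2 window it had 297 identical bases, 0 mismatches and 6 unpaired bases at the ends of the windows, an identity of 98.0%. CCAAT was found on either strand in 37.4% of the RefSeq promoters and TATAA in 24.9%. The motifs do not overlap here.

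Library totals ran from 31233688 to 89774511 counts. Levels are given in CPM, counts relative to the TMM-scaled library total, and 1 CPM in the smallest library stands for 31.2 reads before scaling. The 2 P0 libraries numbered 1 stood apart: their summed erythroid markers were 114.5 and 102.9 CPM against 609.5 to 1367 CPM in the other P0 libraries, and their macrophage markers 227.2 and 149.3 CPM against 1289 to 1844 CPM. Comparisons of ME with WT at P0 are therefore also given without them. Markers of the sorted population summed to between 3817 and 4794 CPM in the other P28 libraries and to between 1873 and 2771 CPM in those marked RLT Vav Txp. These are bulk samples, in which fewer cells of a type and less RNA per cell cannot be told apart.

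Il9r was lowest in wild-type marrow and higher in every ME group than in the wild type of its age. In P28 WT it measured 0, 2.13, 2.87 and 3.05 CPM, and in E10.5-induced ME at P28 34.7, 33.2, 36.9 and 39.7 CPM. The groups did not overlap, as for 28.2% of all genes, and the ME libraries lay close together. The log2 fold change was 4.15 (SE 0.69), a value used in choosing the gene and so given without a test.

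With induction at P0 the P28 libraries held 10.4, 13.1, 5.61 and 7.69 CPM of Il9r. The RLT Vav Txp libraries held 13.3, 7.75, 23.8 and 6.72 CPM. Each of these 8 libraries lay above each P28 WT library and below each E10.5-induced library. Of all genes, 24.8% did not overlap P28 WT with P0 induction and 11.5% for RLT Vav Txp. The log2 fold changes against P28 WT were 2.18 (SE 0.64) and 2.66 (SE 0.65), again as descriptions. All comparisons with P28 WT share the same 4 control libraries. Against E10.5-induced ME the log2 differences were -1.97 (SE 0.62) for P0 induction and -1.49 (SE 0.61) for RLT Vav Txp.

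At P0, where Il9r was not used for the choice, it measured 8.71, 6.15, 8.52 and 15.4 CPM in WT and 71.8, 26.7, 40.6 and 26.2 CPM in ME. The groups did not overlap, as for 3.74% of all genes, and the highest ME library was number 1. The log2 fold change was 2.09 (SE 0.63), which did not pass the threshold of 0.05 (edgeR quasi-likelihood test, Benjamini-Hochberg adjusted p = 0.126), in a comparison that called 0.642% of all genes. Over the alternatives the adjusted p ran from 0.0477 with DESeq2 to 0.288, and without both libraries numbered 1 the log2 fold change was 1.64 (adjusted p = 0.239). From P0 to P28 in WT the log2 change of Il9r was -2.25 (SE 0.64), as a description. By group mean the order was P28 WT (2.01), P0-induced ME (9.22), P0 WT (9.70), RLT Vav Txp (12.9), E10.5-induced ME at P28 (36.1) and P0 ME (41.3 CPM), and only the steps from P28 WT to P0-induced ME and from RLT Vav Txp to E10.5-induced ME separated neighbours in that order without overlap. The test of whether the ME effect differed between P28 and P0 involves the values used in the choice and is not read for Il9r or Rhbdf1.

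Rhbdf1, the gene for iRhom1, rose in marrow with ME induced at E10.5. It measured 10.4, 5.24, 5.31 and 11.9 CPM in P28 WT and 38.3, 36.6, 41.4 and 34.3 CPM in E10.5-induced ME. The groups did not overlap, as for 28.2% of all genes, and the lowest ME library was far above the highest WT library. The log2 fold change was 2.19 (SE 0.46, edgeR adjusted p = 0.00448). It passed the threshold in each of the 18 alternatives, with an adjusted p of at most 0.0301. In this comparison 12.3% of all genes were called.

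With P0 induction Rhbdf1 measured 18.0, 21.1, 13.2 and 11.0 CPM, and the lowest of these lay below the highest P28 WT library. The log2 fold change of 0.94 (SE 0.44) did not pass (edgeR adjusted p = 0.228), where 1.57% of all genes were called. With only these 2 groups fitted it passed (adjusted p = 0.0375), as did 27.9% of all genes. In the RLT Vav Txp group Rhbdf1 measured 26.3, 24.0, 42.0 and 15.1 CPM, each above P28 WT, a separation seen for 11.5% of all genes. Rhbdf1 rose there (log2 fold change 1.71, SE 0.45, adjusted p = 0.0264 by edgeR), in a comparison that called 4.12% of all genes. This call was lost without P28 WT library 2 (adjusted p = 0.0994), without P28 WT library 3 (0.111) and without RLT Vav Txp library 3 (0.116), and with plain library totals (0.0529) or no filter (0.069). The direct differences from E10.5-induced ME, -1.25 (SE 0.44) for P0 induction and -0.49 (SE 0.44) for RLT Vav Txp, did not pass (edgeR adjusted p = 0.911 and 0.487). These comparisons called 0.0477% and 17.9% of all genes. For P0 against E10.5 induction the Rhbdf1 difference passed with limma voom (adjusted p = 0.000167, with 10.1% of all genes called) and with only these groups fitted (0.00185, with 6.35%).

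At P0 Rhbdf1 measured 5.03, 3.21, 1.68 and 2.92 CPM in WT and 53.3, 18.5, 27.7 and 5.85 CPM in ME. The groups did not overlap, as for 3.74% of all genes, although ME library 4 lay just above WT library 1. The log2 fold change of 3.04 (SE 0.47) chose the gene, and without both libraries numbered 1 it was 2.74. By group mean Rhbdf1 was lowest in P0 WT (3.21 CPM), then P28 WT (8.23), P0-induced ME (15.8), P0 ME (26.3), RLT Vav Txp (26.8) and E10.5-induced ME at P28 (37.7 CPM), and of these steps only the one between the wild types separated all libraries. In P0 ME the Rhbdf1 order ran against that of Hba-a1, which measured 17.7 CPM in library 1, 1399 in library 3, 2909 in library 2 and 3986 in library 4. Whether these levels have to do with each other was not tested.

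**Figure D1:**
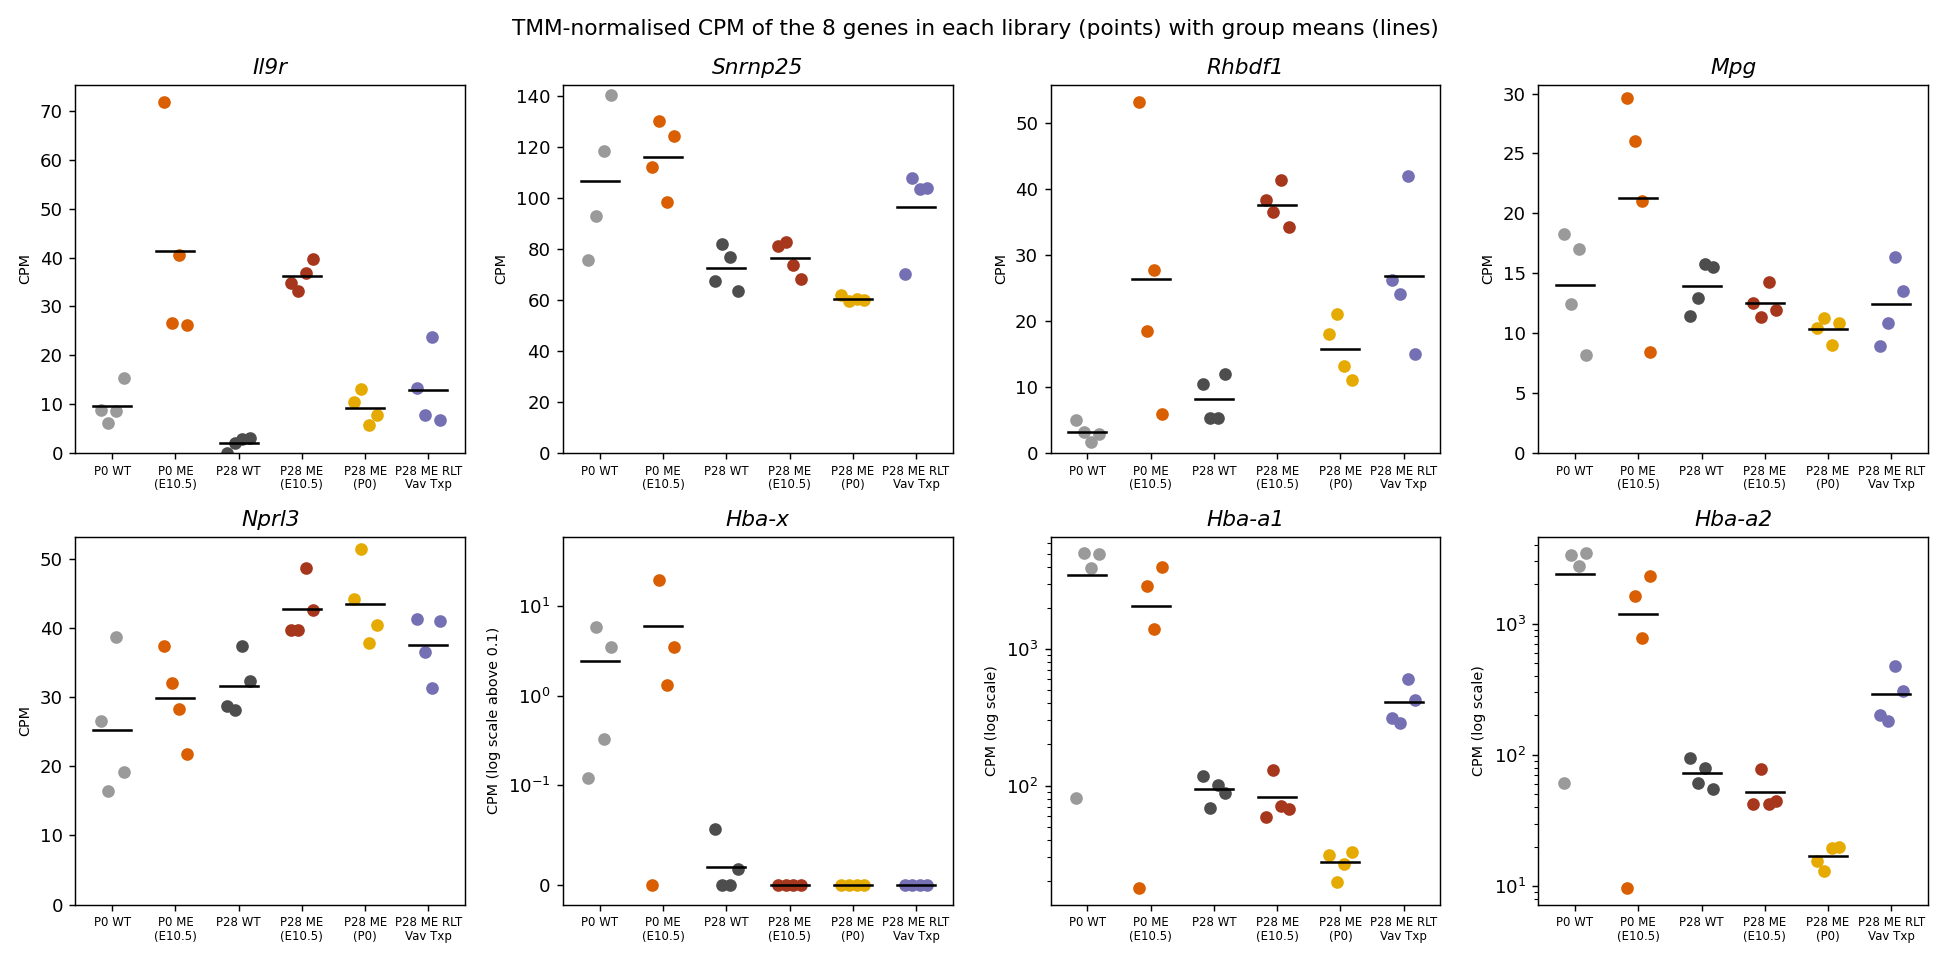
TMM-normalised CPM of the 8 genes (points, 1 per library; lines, group means) in the 6 groups, with log axes for the alpha-globin genes. Il9r and Rhbdf1 sit highest among P28 groups in E10.5-induced ME, Snrnp25 lies between 59.8 and 140 CPM in every library, and Hba-a1 in P0 library 1 is far below the other P0 libraries.

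Snrnp25, which lies between Il9r and Rhbdf1, did not show their pattern. It measured 67.3, 82.0, 76.9 and 63.7 CPM in P28 WT and 81.4, 82.9, 73.6 and 68.3 CPM in E10.5-induced ME. The ranges overlapped almost completely. The log2 fold change was 0.08 (SE 0.17, edgeR adjusted p = 0.814), and it was -0.049 with plain library totals. At P0 it was 0.12 (SE 0.17, adjusted p = 0.798), from 107 ± 28.5 CPM in WT to 116 ± 14.2 CPM in ME (SD, n = 4). The standard error of Snrnp25 was the smallest among the 8 genes in both comparisons.

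With P0 induction Snrnp25 averaged 60.5 ± 1.04 CPM against 72.5 ± 8.45 CPM in P28 WT (SD, n = 4), without overlap, as for 24.8% of all genes. The log2 difference of -0.26 (SE 0.17) did not pass (edgeR adjusted p = 0.404). In the RLT Vav Txp libraries it averaged 96.5 ± 17.5 CPM (SD, n = 4). The log2 difference from P28 WT, 0.41 with an SE of 0.17, did not pass (edgeR adjusted p = 0.205) but passed with limma voom (adjusted p = 0.0341).

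Mpg, the glycosylase gene, averaged 13.9 ± 2.10 CPM in wild-type marrow (SD, n = 4). With ME it averaged 12.5 ± 1.24 after E10.5 induction, 10.4 ± 0.985 after P0 induction and 12.4 ± 3.23 CPM in RLT Vav Txp libraries (SD, n = 4 each). The P0-induced libraries lay below P28 WT without overlap (24.8% of all genes did not overlap there), and the other ranges overlapped it. The log2 fold changes against P28 WT were -0.15 (SE 0.30), -0.42 (SE 0.30) and -0.17 (SE 0.30), and none of these 3 passed (edgeR adjusted p = 0.794, 0.453 and 0.883). At P0 Mpg averaged 14.0 ± 4.59 CPM in WT and 21.3 ± 9.27 CPM in ME, a log2 fold change of 0.61 (SE 0.30, adjusted p = 0.365).

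Nprl3, the GATOR1 subunit gene, lay slightly above wild-type marrow in ME marrow induced at E10.5 or at P0. It measured 28.7, 28.1, 37.4 and 32.3 CPM in P28 WT, against 39.8, 39.8, 48.6 and 42.6 CPM after E10.5 induction and 44.2, 51.4, 37.8 and 40.4 CPM after P0 induction. Neither ME group overlapped P28 WT, a separation that 28.2% and 24.8% of all genes showed. The log2 fold changes of 0.43 (SE 0.22) and 0.46 (SE 0.22) did not pass (edgeR adjusted p = 0.198 and 0.229), but both passed with limma voom (adjusted p = 0.0451 and 0.0284), which called 28.2% and 21.7% of all genes. RLT Vav Txp libraries averaged 37.5 ± 4.68 CPM of Nprl3 (SD, n = 4) and overlapped P28 WT.

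Of the 6 neighbours, edgeR called 0 in each of the 4 comparisons of ME with WT. At P28 Hba-x had at most 2 counts in any library, so it could not be called there. The P28 counts in this paragraph, by any tool, thus say nothing about Hba-x. Of all genes edgeR called 0.642% at P0, 12.3% for E10.5 induction, 1.57% for P0 induction and 4.12% for RLT Vav Txp. At an unadjusted p under 0.05 the number of neighbours was 0 at P0, 0 for E10.5 induction, 2 for P0 induction and 2 for the RLT Vav Txp group. DESeq2 called 0 in each of the 4, and limma voom 0, 1, 1 and 1 (Nprl3, Nprl3 and Snrnp25), where for RLT Vav Txp voom called 6.17% of all genes. With only the compared groups fitted, 4 neighbours passed for P0 induction (Snrnp25, Nprl3, Hba-a1 and Hba-a2), beside 27.9% of all genes, and 2 for RLT Vav Txp (Hba-a1 and Hba-a2), the latter beside 6.22% of all genes. A missed threshold does not show that a neighbour did not change, and on simulated data the test missed most changes of 2-fold. For E10.5 induction at P28 the standard errors were 0.17 for Snrnp25, 0.22 for Nprl3 and 0.93 for Hba-a1.

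**Figure D2:**
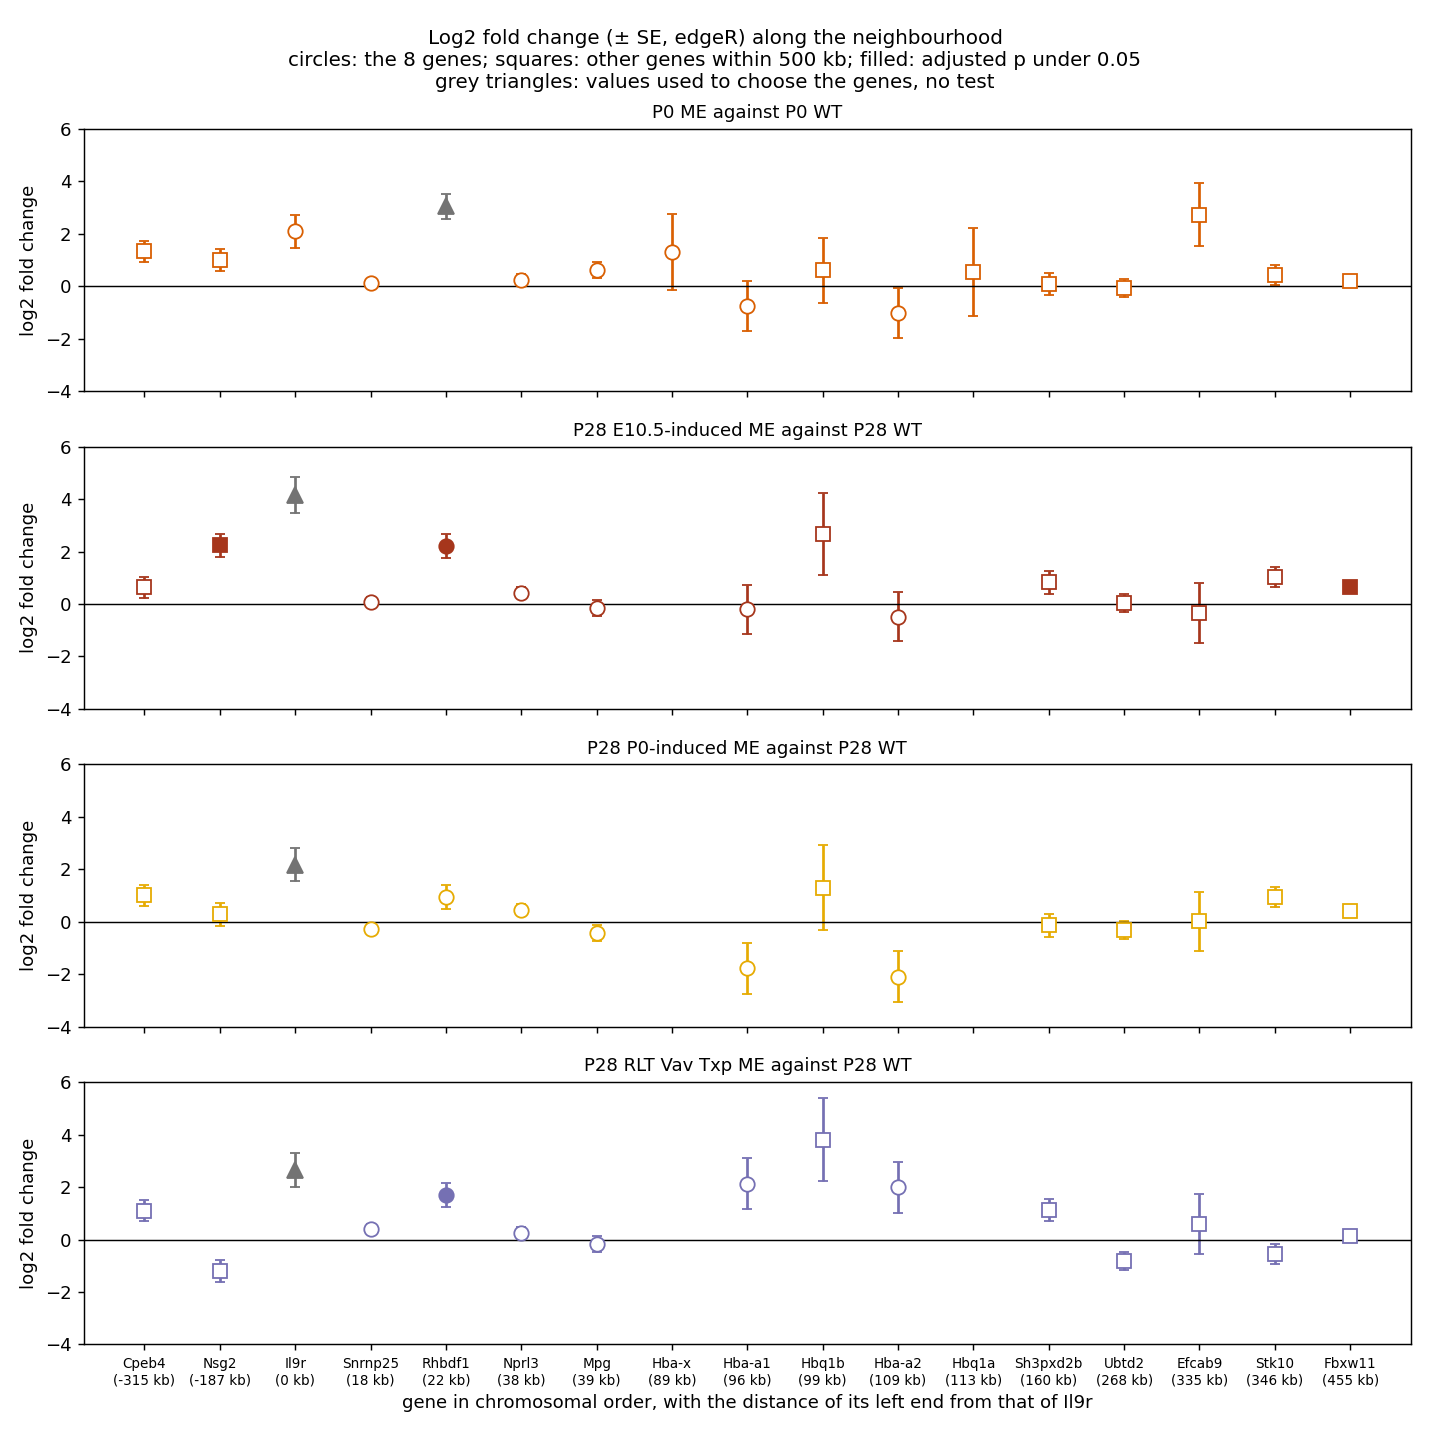
Log2 fold change (± SE, edgeR) of the 8 genes (circles) and other tested genes within 500 kb (squares) in chromosomal order for the 4 comparisons of ME with WT, with the distance from Il9r in kb under each name. Rhbdf1 is filled (adjusted p under 0.05) at P28 with E10.5 induction and in the RLT Vav Txp group, while Snrnp25 lies between -0.26 and 0.41 and is open in each panel; grey triangles mark values used in the choice, and Hba-x and Hbq1a are left out at P28, where WT was at or near 0.

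Per kb of exon, the only scale on which genes are compared with each other here, Il9r averaged 0.406 ± 0.283 CPM per kb in P28 WT and 7.31 ± 0.574 after E10.5 induction of ME (SD, n = 4). Rhbdf1 averaged 1.51 ± 0.637 and 6.93 ± 0.548 CPM per kb, and Nprl3 4.18 ± 0.565 and 5.64 ± 0.551. Snrnp25 stood at 69.6 ± 8.12 and 73.5 ± 6.60 CPM per kb. In wild-type marrow Il9r and Rhbdf1 were thus below Nprl3 and in E10.5-induced ME above it, and in both groups they were far below Snrnp25. The exon length of Nprl3 includes the 1340 bases shared with Mpg, where reads could not be assigned with certainty. Its place below Il9r and Rhbdf1 in E10.5-induced ME is therefore uncertain.

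Ratios within a library do not depend on scaling between libraries. They were taken after the levels had been seen and are given as descriptions, with no test. At P0 the mean log2 ratios of Il9r counts to those of Snrnp25, Mpg and Nprl3 were 1.89, 1.52 and 1.75 higher in ME than in WT, and the libraries overlapped for Mpg. For Rhbdf1 at P28 with E10.5 induction the same 3 partners gave 2.21, 2.44 and 1.86, with no overlap. With P0 induction they gave 1.25, 1.41 and 0.54, and for RLT Vav Txp 1.31, 1.90 and 1.47, and in both groups the libraries overlapped for Snrnp25 and Nprl3.

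**Figure D3:**
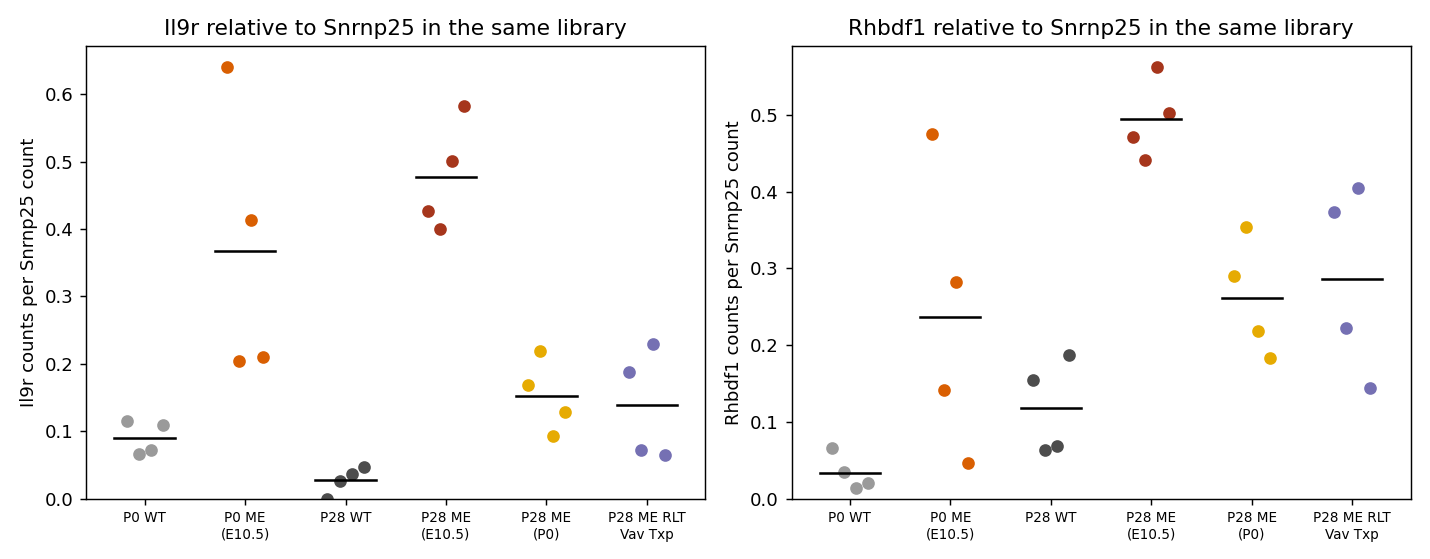
Counts of Il9r (left) and Rhbdf1 (right) per Snrnp25 count in each library (points) with group means (lines). In E10.5-induced ME at P28 the Rhbdf1 ratio lies between 0.442 and 0.562, against 0.0639 to 0.187 in P28 WT.

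The adult alpha-globin genes were lower in P28 marrow than in P0 liver of wild type. Hba-a1 measured 80.4, 5046, 3921 and 5012 CPM in P0 WT and 118, 68.4, 101 and 87.9 CPM in P28 WT. P0 WT library 1 lay within the P28 range, so the groups overlapped, and the other 3 were far above it. On the log2 scale Hba-a1 fell by 5.23 from P0 to P28, with an SE of 1.12 (edgeR adjusted p = 0.00688). Hba-a2 fell by 5.04 with an SE of 1.11 (edgeR adjusted p = 0.00845). In this comparison 7.68% of all genes were called, among them Hba-a1, Hba-a2 and Snrnp25, and 9 of 11 erythroid markers fell. Without both P0 libraries numbered 1 the falls of Hba-a1 and Hba-a2 were 5.63 and 5.45. Limma voom called none of these 3 neighbours, with an adjusted p of 0.11 for both adult genes.

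Hba-x, the embryonic gene, measured 0.121, 5.93, 0.333 and 3.49 CPM in P0 WT and 0, 19.5, 1.32 and 3.55 CPM in P0 ME. At P28 it had 0 counts in 14 of 16 libraries and at most 2 in any, so it passed the filter through P0 alone, and its difference between the ages is given as these levels, with no test. The P0 libraries varied widely, and 1 of them, ME library 2, was far above the rest. Snrnp25 fell from P0 to P28 in WT by 0.56 (SE 0.17, edgeR adjusted p = 0.0392), with overlapping groups. This call was lost without P0 WT library 3 or 4 or any P28 WT library (adjusted p up to 0.123), and it passed in 8 of 19 alternatives in all, with an adjusted p between 0.00583 and 0.273.

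At P28 the adult genes lay on opposite sides of wild type in 2 of the ME groups. Hba-a1 measured 59.0, 130.3, 70.4 and 67.6 CPM with E10.5 induction and 30.7, 19.7, 26.7 and 32.5 CPM with P0 induction. RLT Vav Txp libraries held 314, 289.7, 608 and 425 CPM. The P0-induced libraries lay below each P28 WT library and the RLT Vav Txp libraries above each of them. Such separations were seen for 24.8% and 11.5% of all genes. The E10.5-induced libraries overlapped P28 WT. The log2 fold changes were -0.20 (SE 0.93), -1.78 (SE 0.96) and 2.12 (SE 0.97), and none of the 3 passed (edgeR adjusted p = 0.925, 0.317 and 0.299). These standard errors come from the fit to all 24 libraries, including those at P0, where Hba-a1 ran from 17.7 to 5046 CPM. They are thus not the spread of the P28 libraries alone. With only the compared groups fitted, Hba-a1 passed for P0 induction (-1.83, SE 0.18, edgeR adjusted p = 1.32e-05) and for RLT Vav Txp (2.12, SE 0.24, adjusted p = 0.000173). Hba-a2 showed -0.49, -2.10 and 2.00 (edgeR adjusted p = 0.793, 0.235 and 0.34). At P0 the log2 fold changes with ME were -0.76 (SE 0.94) for Hba-a1 and -1.02 (SE 0.94) for Hba-a2 (adjusted p = 0.77 and 0.675). Without both libraries numbered 1 they were -0.75 (SE 0.33) and -1.01 (SE 0.35), and neither passed (edgeR adjusted p = 0.246 and 0.151). In the same fit Snrnp25 was 0.0048, Mpg 0.56, Nprl3 0.14 and Hba-x 1.32, and none of these 4 passed (edgeR adjusted p between 0.406 and 1).

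Markers of other cells also differed between the groups. The summed level of the 11 erythroid markers in the table ran from 48.7 to 86.6 CPM in P28 WT, from 102 to 146 after E10.5 induction, from 52.4 to 206 after P0 induction and from 258 to 445 for RLT Vav Txp, and 0 of the 11 were at 0 throughout a group. Of the 11, 4 rose in the RLT Vav Txp group, among them Gata1 (log2 fold change 2.75, SE 0.46, edgeR adjusted p = 0.00058), the erythroid and megakaryocytic transcription factor, and Epor (2.33, SE 0.51, adjusted p = 0.00632), the erythropoietin receptor. With E10.5 induction 2 of 11 rose, Gata1 (1.77, SE 0.45, adjusted p = 0.0123) and Epb42 (2.09, SE 0.64, adjusted p = 0.0324). The summed level of 10 macrophage markers ran from 790 to 3364 CPM for RLT Vav Txp against 77.6 to 111 CPM for P28 WT, and 10 of 10 rose. Of 5 tested globin genes outside the 8, such as Hbb-bs, edgeR called 0 in the 4 comparisons of ME with WT, with 1 at an unadjusted p under 0.05 for P0 induction and 3 for RLT Vav Txp. DESeq2 called 1 for P0 induction and limma voom 0. From P0 to P28 in WT, 3 of the 5 fell. The part of these cells in the values of the 8 genes was not tested.

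**Figure D4:**
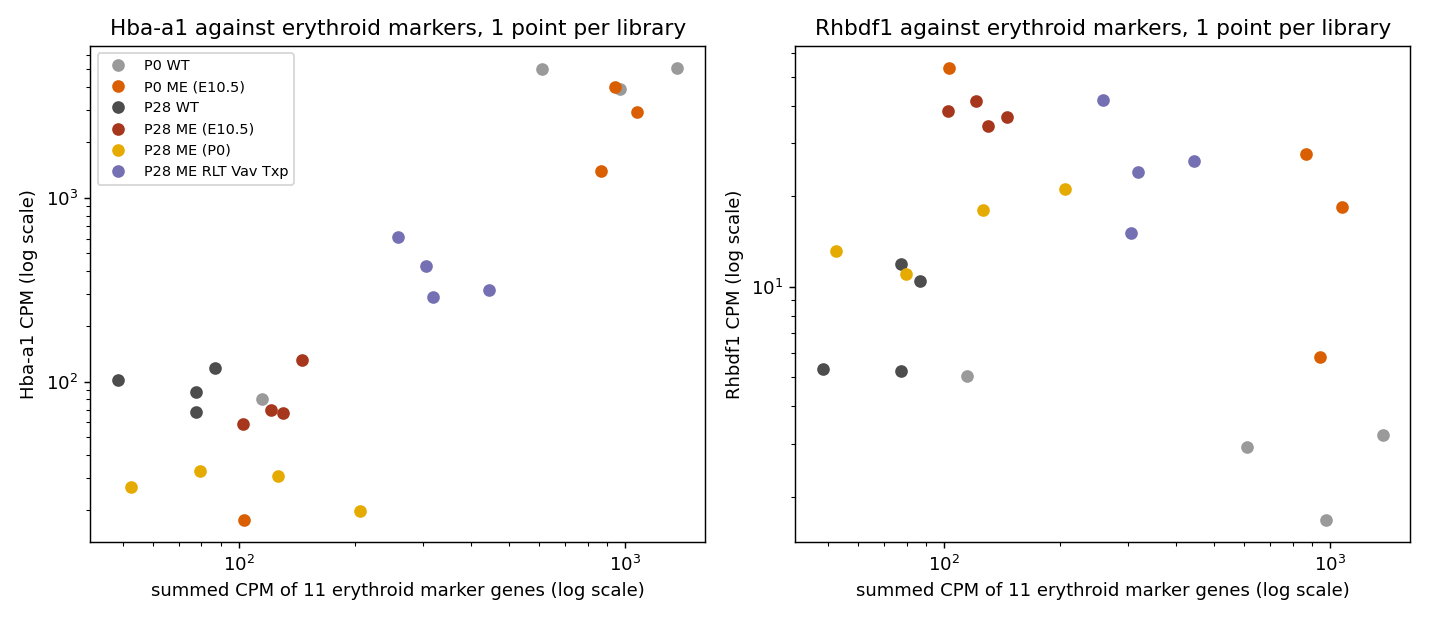
Hba-a1 (left) and Rhbdf1 (right) CPM against the summed CPM of 11 erythroid markers, 1 point per library, all axes on log scales. The 10 libraries with marker sums of at least 258 CPM hold at least 289.7 CPM of Hba-a1 and the other 14 at most 130.3 CPM, while Rhbdf1 ranges from 1.68 to 42.0 CPM in those 10 libraries.

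Mast cell and basophil markers, cells in which the interleukin-9 receptor is known to act, reached 151 to 201 CPM in sum for P28 WT and 252 to 340 CPM for E10.5-induced ME at P28. Mcpt4 was at 0 in all 4 of the former and Tpsb2 in all 4 of the latter. At P0 they went the other way to Il9r, with 1058 to 11060 CPM in WT and 248 to 1011 CPM in ME. Of these 10 markers 1 rose and 1 fell with E10.5 induction at P28, and at P0 edgeR called 0. Although their sum was higher with E10.5 induction at P28, the list's median log2 fold change there was -0.86, and that of all genes -0.10. At P0 the medians were -2.11 and -0.01. Their part in the Il9r level was not tested.

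Among 13 tested genes of interleukin-9 receptor signalling other than Il9r, 5 rose and 0 fell with E10.5 induction at P28, where the list's median log2 fold change was 0.47 and that of all genes -0.10. Among them were Stat3 (log2 fold change 0.92, SE 0.19, edgeR adjusted p = 0.00454), Stat5a (0.75, adjusted p = 0.0127), Stat5b (0.88, adjusted p = 0.0343) and Jak3 (0.77, adjusted p = 0.0171), the kinase bound to the common gamma chain. At P0 edgeR called 1 of the 13 higher and 1 lower, and limma voom called 0. The lower one was Socs2, a feedback inhibitor of cytokine signalling, which fell by 2.10 (SE 0.32, edgeR adjusted p = 0.00117). With P0 induction Stat3 rose (0.91, SE 0.19, adjusted p = 0.0308), and in the RLT Vav Txp group 0 of 13 were called by edgeR, 5 had an unadjusted p under 0.05, and limma voom and DESeq2 called 2 and 1.

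Genes that work with the other members were mostly not called. Of 10 tested genes of iRhom and ADAM17 shedding, Frmd8, whose protein binds iRhoms, rose with E10.5 induction at P28 (0.67, SE 0.17, edgeR adjusted p = 0.0117). Of 15 genes of the GATOR and nutrient sensing list, Depdc5, another GATOR1 subunit (1.25, SE 0.41, adjusted p = 0.0443), and Sesn1 (0.71, adjusted p = 0.0468) rose there. Of 15 base excision repair genes, Lig3 (1.35, SE 0.26, adjusted p = 0.00315), Tdg and Parp1 rose. Of 9 minor spliceosome genes edgeR called 0, with 2 at an unadjusted p under 0.05, 3 called by limma voom and 1 by DESeq2. These counts stand beside the 12.3% of all genes called in that comparison. In the other 3 comparisons of ME with WT, edgeR called 1 gene of the 4 lists, Castor2, which fell by 1.11 in the RLT Vav Txp group (SE 0.30, edgeR adjusted p = 0.0298). For P0 induction limma voom called 1, 6, 4 and 2 genes of the iRhom, GATOR, base excision repair and minor spliceosome lists. DESeq2 called 2 base excision repair genes there, and 1 each at P0 and for RLT Vav Txp.

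In the interval or within 500 kb of it 17 further genes are annotated, of which 9 passed the filter. Among the 9, Hbq1b lies inside the interval. Its log2 fold changes with ME were 0.61 (SE 1.24) at P0 and 2.68 (SE 1.57) with E10.5 induction. With P0 induction and for RLT Vav Txp they were 1.29 (SE 1.63) and 3.81 (SE 1.58). None of these passed (edgeR adjusted p = 0.874, 0.285, 0.713 and 0.219). For RLT Vav Txp the Hbq1b groups did not overlap, as for 11.5% of all genes. Nsg2, a neuronal endosomal protein gene 128.3 kb from Il9r, rose with E10.5 induction at P28 (log2 fold change 2.24, SE 0.44, edgeR adjusted p = 0.00321), from 6.99 ± 1.18 to 33.0 ± 3.51 CPM (SD, n = 4). Fbxw11, a ubiquitin ligase subunit gene 442.4 kb away, rose by 0.63 (SE 0.19, adjusted p = 0.0344). In the other 3 comparisons of ME with WT edgeR called 0 of the 9, with 3 at P0, 3 for P0 induction and 6 for RLT Vav Txp at an unadjusted p under 0.05. DESeq2 called 1, 0 and 0 there and limma voom 0, 2 and 0. In the RLT Vav Txp group Nsg2 was lower than in E10.5-induced ME by 3.45 on the log2 scale (SE 0.46, adjusted p = 2.73e-05), unlike Rhbdf1, for which that difference did not pass; the contrast between the genes was not tested.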

How the data were processed

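Per the labels' protocols, total RNA came from a Qiagen RNeasy Plus kit, with Clontech reagents. The authors deposited 1 table of whole-number read counts for Ensembl genes. STAR 2.7.9a, Subread, featureCounts 2.0.3 and GRCm38 are named in the submitters' processing notes. The strand setting and the handling of reads with several matches are not given in the sources used here. The table had 55774 entries, and 287 repeats of 168 IDs were dropped. Library totals ran from 31233688 to 89774511 counts. Symbols and positions are from GENCODE M21 and promoters from RefSeq GRCm38.p6.

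Counts were filtered with filterByExpr (minimum count 10), scaled by TMM and fitted with edgeR 4.0.16 (R 4.3.3), using the robust quasi-likelihood F-test. The 6 group means were fitted to all 24 libraries together (18 residual degrees of freedom). There were 8 comparisons, each adjusted by Benjamini-Hochberg over 23059 genes. Called means an adjusted p under 0.05, and rose and fell are used only of called genes. In the main fit the spread of each gene was estimated within all 6 groups together. Its p-values therefore do not measure the spread of the compared groups alone.

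The members and gene lists were chosen with earlier results of these data known. The rule named the 8 members, at most 4 genes per list (those called in most comparisons of ME with WT, ties by mean level), genes within 500 kb that passed the filter, and the 5 genes with the highest Pearson r. More than 4 genes of the interleukin-9 receptor list were named after their values were seen. Some genes that the rule names are not reported here. Alternatives were RLE factors, plain totals, totals without globins, DESeq2 1.42.0, limma 3.58.1 voom with quality weights, other filters, a fit of only the groups compared, leaving out each library, and a replicate block. The removal of both P0 libraries numbered 1 and the ratios within libraries were added after seeing the data. The fit was tested on simulated data, where it found nearly all of the larger changes and missed most of the smallest, of 2-fold. The main fit treated the samples as unpaired, since not every same-numbered pair correlated above 0.1. At P0, ME and WT libraries numbered 1 to 4 correlated with r = 0.66, 0.0531, 0.371 and 0.464 in their deviations from the group mean. The highest r of these ME libraries with a P0 WT library of another number was 0.0105, 0.369, 0.277 and -0.027. Whether same-numbered P0 libraries share an origin was not tested, and the replicate block is given as an alternative. That block fits the same effect of each number at P0 and at P28. It is therefore no check on pairing within P0 alone, which was not fitted.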

Additional observations from a re-analysis of the deposited data

Results flagged for a closer look

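In 3 of 44 groups of 4 libraries 1 library stood far from the rest by Dixon's test, which chance does in about 1 in 20 groups. Snrnp25 measured 70.4 CPM in RLT Vav Txp library 1 against 103.7 to 108 CPM in the other 3. In E10.5-induced ME at P28, library 2 held 130.3 CPM of Hba-a1 against 59.0 to 70.4 CPM, and 78.8 CPM of Hba-a2 against 42.1 to 44.3 CPM.

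The adult alpha-globin genes lay on opposite sides of P28 WT in 2 ME groups, with every library of each group beyond the WT range, as for 24.8% of all genes with P0 induction and 11.5% for RLT Vav Txp. Hba-a1 differed by -1.78 on the log2 scale with P0 induction and by 2.12 in the RLT Vav Txp group, and Hba-a2 by -2.10 and 2.00. The difference between the 2 groups was not tested, and both share the same WT libraries.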

How the results depend on the processing

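Counts of called genes out of the 8 and out of the 6 neighbours depended on the tool and on which groups were fitted. Where no cause is given it was not tested. The counts out of the 8 include values that chose Il9r and Rhbdf1. They are given only to show how calls moved with the processing, and are not read as a test of either gene. For ME against WT at P0 the count of the 8 was 1, with 2 by DESeq2, 0 by limma voom and 0 with only the compared groups fitted, and neighbours stayed at 0. For E10.5 induction at P28 it was 2, and neighbours went from 0 to 1 with limma voom. For P0 induction it went from 0 to 1 with DESeq2, 2 with limma voom and 5 with only the compared groups fitted, and neighbours from 0 to 1 and 4 with the last 2 of these. For RLT Vav Txp it went from 2 to 1 with plain totals, 0 without a filter and 0 to 2 over the fits that left out 1 library, and neighbours from 0 to 1 with limma voom and 2 with only the compared groups. For P0 against E10.5 induction it went from 0 to 3 with limma voom and 4 with only the compared groups, and neighbours from 0 to 1 and 2. For RLT Vav Txp against E10.5-induced ME it went from 0 to 2 with DESeq2, 2 with limma voom and 3 with only the compared groups, and neighbours from 0 to 2, 1 and 2; leaving out 1 library gave 0 to 1 for both, the 1 being Snrnp25 without RLT Vav Txp library 1, at the threshold itself (adjusted p = 0.05 as rounded). For WT at P28 against P0 it went from 5 to 0 with limma voom, 2 without a filter and 2 with only the compared groups, and from 2 to 6 on leaving out 1 library; neighbours went from 4 to 0, 2 and 2, and from 2 to 4. These counts include Hba-x, which passed the filter through P0 alone.

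Directions reversed only for small or imprecise values among those recomputed. Hba-x at P0 was -0.76 with limma voom and -0.63 without P0 ME library 2, and -0.63 to 2.18 over the fits that left out 1 library. Snrnp25 with E10.5 induction at P28 was -0.00113 with RLE factors, -0.049 with plain totals, -0.000995 with DESeq2 and -0.00175 without P28 WT library 1 (-0.00175 to 0.14 over the fits that left out 1 library), and at P0 it was -0.059 without P0 WT library 1 (-0.059 to 0.23). Plain totals moved the median of all genes by -0.13 for E10.5 induction at P28, -0.10 for RLT Vav Txp, 0.11 for P0 against E10.5 induction and 0.15 for WT at P28 against P0. With the replicate block over the 20 numbered libraries, 4 of the 8 and 3 of the 6 neighbours were called for WT at P28 against P0. With no block the counts were 5 and 4. The calls that changed were those of Hba-x, Il9r and Rhbdf1. Their differences between the ages are descriptions here, so these changes are not read. The block left the counts of the other comparisons it could be fitted to as they were, with Rhbdf1 at 2.22 (edgeR adjusted p = 0.00311) for E10.5 induction. It spans both ages, so for ME against WT at P0 it does not check pairing within P0 alone. Counts over all genes moved more: over the alternatives 148 genes at P0 became 5 to 802, 2827 for E10.5 induction 893 to 6492, 362 for P0 induction 7 to 5196, 950 for RLT Vav Txp 635 to 1644, 11 for P0 against E10.5 induction 4 to 2326, 4122 for RLT Vav Txp against E10.5-induced ME 2061 to 8053, and 1771 for WT at P28 against P0 481 to 2797.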

Other observations

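Over the 24 libraries, which share groups and scaling, the genes most like Il9r in log2 CPM included Mrs2 (Pearson r = 0.813), Mllt10, Hoxa6 and Tifab (0.780), and those most like Rhbdf1 included Mbnl1 (0.875), Tle6, Tgfbrap1 and Hspa2 (0.822). Il9r and Rhbdf1 had a Pearson r of 0.423 and a Spearman rho of 0.679 with each other. By Pearson r Rhbdf1 ranked 1142 in likeness to Il9r among all tested genes. Hba-a1 was most like Hbb-bs, an adult beta-globin gene (0.996), and Alas2, the erythroid enzyme that starts haem synthesis (0.984). Nprl3, whose introns hold alpha-globin enhancers, had an r of -0.66 with Hba-a1, and Snrnp25 had 0.767. These are descriptions, with no test.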
